A study of Mus musculus with 6 samples.

Results

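Striatal marker genes in the cerebral cortex were compared mouse by mouse and at both ages, as a sign of how the cortex was dissected from the brain. The genes were the 7 listed striatal markers Adora2a, Gpr6, Ppp1r1b, Pde10a, Rgs9, Six3 and Syndig1l, found by symbol among 55421 genes, each on 1 row. Each library came from the cortex of 1 mouse: the young animals, aged 6 months, were mice 10, 11 and 17, and the old animals, aged 24 months, were mice 2, 4 and 5. All mice were male, wild type (WT) and of the C57BL/6J strain, and all were put under isoflurane before cervical dislocation. The microdissected cortex was powdered whole and RNA-seq libraries were made from 10 ng of its total RNA, so that layers and areas are mixed in each.

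The striatum lies below the cortex, separated from it by the fibre tracts of the white matter. Most of its neurons are medium spiny neurons, inhibitory projection neurons that receive glutamate from the cortex and dopamine from the midbrain, and that are divided into a direct pathway with the dopamine receptor Drd1 and an indirect pathway with Drd2 and Adora2a. In both pathways the receptors act on cyclic AMP, which drives protein kinase A, and several of the striatal markers code for parts of this chain. Such markers are enriched in the striatum rather than silent elsewhere, and Ppp1r1b is known in deep cortical layers. In bulk tissue, fewer cells of a type and less RNA per cell cannot be told apart.

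The libraries held 29495379 to 36494240 counts. A minimum of 10 counts summed over all mice left 32905 genes to test. By the quasi-likelihood test of edgeR, 0% of them passed a false discovery rate (FDR) of 1% and 30.7% (10096) had an unadjusted p under 0.05, of which 5780 were higher and 4316 lower at 24 months. The likelihood ratio test of edgeR called 5.18% at 1% FDR and the Wald test of DESeq2 1.3%. The log2 fold changes below are for 24 against 6 months after TMM scaling, under which the median gene tested stood at 0.15 and the median of the 15761 genes of at least 1 CPM at -0.14. With totals in place of TMM factors, the corresponding values were 0.34 and 0.05. CPM is the count scaled for library size, and TPM also divides by exonic length, so levels of different genes are compared in TPM.

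Promoters are shown for Gpr6, whose window holds a cyclic AMP motif, and for Six3 and its antisense neighbour Six3os1, the pair whose ages did not overlap. RefSeq promoters (250 bases before to 50 after the start, GRCm38.p6) were found for 4 of the 7 genes, Gpr6, Rgs9, Pde10a and Six3. Gpr6 is at chr10:41072241-41072540 on the minus strand, Six3 at chr17:85620584-85620883 on the plus strand and Six3os1 at chr17:85618347-85618646 on the minus strand. Capitals mark the cAMP response element TGACGTCA and the CCAAT box, in either direction, which do not overlap in these windows.
Gpr6: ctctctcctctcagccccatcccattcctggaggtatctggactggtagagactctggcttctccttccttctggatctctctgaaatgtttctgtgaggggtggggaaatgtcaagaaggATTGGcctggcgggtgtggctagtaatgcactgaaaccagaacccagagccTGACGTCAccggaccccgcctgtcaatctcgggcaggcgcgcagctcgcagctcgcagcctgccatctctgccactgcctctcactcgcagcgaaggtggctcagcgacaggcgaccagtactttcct
Six3: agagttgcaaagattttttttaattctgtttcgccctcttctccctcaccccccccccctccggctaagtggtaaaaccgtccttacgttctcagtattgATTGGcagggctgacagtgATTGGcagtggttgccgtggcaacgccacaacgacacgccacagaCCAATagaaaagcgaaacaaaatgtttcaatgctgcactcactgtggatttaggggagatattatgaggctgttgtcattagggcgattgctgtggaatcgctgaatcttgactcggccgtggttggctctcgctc
Six3os1: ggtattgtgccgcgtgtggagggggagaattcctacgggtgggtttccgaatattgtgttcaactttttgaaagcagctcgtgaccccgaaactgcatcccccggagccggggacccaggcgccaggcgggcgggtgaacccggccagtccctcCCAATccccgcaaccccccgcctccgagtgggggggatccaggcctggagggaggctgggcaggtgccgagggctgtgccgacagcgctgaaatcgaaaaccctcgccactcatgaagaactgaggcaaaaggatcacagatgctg

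The Gpr6 window held 1 cAMP response element, with its bases at -78 to -71 from the start, and 1.79% of the 32851 RefSeq promoters of this length hold these letters. The CCAAT box, searched like the other motifs on both strands, was found at 3 positions of the Six3 window and at 1 position in each of the Gpr6, Six3os1 and Rgs9 windows and 1 of the Pde10a windows, and is in 37.4% of promoters. TATAAA was found in the Rgs9 window alone of the members' windows, at -195 to -190, and is in 13.6% of promoters. The GC box GGGCGG, left in lower case, was found in the Rgs9, Pde10a and Six3os1 windows and is in 35.7% of promoters. These matches are letters in a window and were not tied to a measured site.

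The members were at very different levels in the cortex. Ppp1r1b had a mean of 121.1 TPM over the 6 libraries and was 1524th of 55421 genes, whereas Pde10a had 10.8 TPM, Adora2a 5.66, Rgs9 5.00, Gpr6 2.30, Syndig1l 1.35 and Six3 0.122 TPM. Adora2a and Rgs9, neighbours in this order, overlapped in their libraries. The mean of Ppp1r1b was 989-fold that of Six3. Ppp1r1b alone made up 75.9% to 85.2% of the summed TPM of the 7 genes in a library, so that their sum mostly reads Ppp1r1b. The sum was 162.5, 145.4 and 148.5 TPM in mice 10, 11 and 17 and 112.5, 144.9 and 164.3 TPM in mice 2, 4 and 5, and the library with the lowest sum, mouse 2, was also the lowest for Ppp1r1b.

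**Figure D1:**
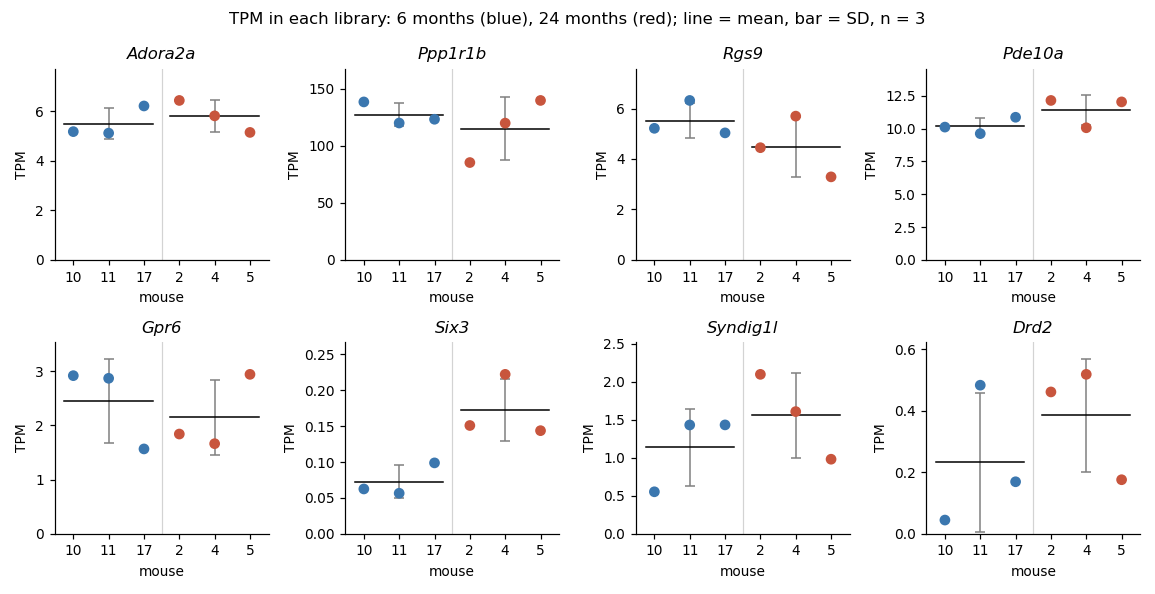
TPM (vertical axes from 0) of the 7 striatal marker genes and of Drd2 in each library, with mouse numbers on the horizontal axes, the 6-month mice in blue and the 24-month mice in red. Lines are means and bars are SD (n = 3 mice). The ages overlap in each panel except that of Six3, which stays under 0.23 TPM.

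Of the receptors, Adora2a, an adenosine receptor that raises cyclic AMP in indirect pathway neurons (ENSMUSG00000020178.6, chromosome 10 from 75316877 to 75334784, GRCm38, plus strand, 5 exon blocks), had 5.18, 5.12 and 6.22 TPM in the 6-month mice 10, 11 and 17 and 6.44, 5.82 and 5.15 TPM in the 24-month mice 2, 4 and 5. The ages overlapped, and each held both a high and a low library. The means were 5.51 ± 0.617 and 5.80 ± 0.646 TPM (SD, n = 3 mice each). Its log2 fold change was -0.04 (95% interval -0.39 to 0.32, adjusted p = 0.891 in the quasi-likelihood test), and its sign turned to 0.16 when library totals replaced the TMM factors. The spread of Adora2a between mice of an age, an SD of 0.16 on the log2 CPM scale, was at the median of 0.16 over the genes of at least 1 CPM.

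Gpr6, an orphan receptor that signals to cyclic AMP without a known ligand (ENSMUSG00000046922.7, chromosome 10 from 41069977 to 41072285, minus strand), was counted 46, 50 and 26 times in the 6-month mice and 28, 27 and 47 times in the 24-month mice. In TPM this was 2.92, 2.87 and 1.57 against 1.84, 1.66 and 2.94. Mice 10, 11 and 5 were high and mice 17, 2 and 4 low, across the ages rather than between them. At 6 months the highest library exceeded the lowest 1.84-fold per total count (exact 95% interval 1.11 to 3.10), and at 24 months 1.72-fold (1.05 to 2.87), and these intervals cover counting error only. Here and below the pair was chosen as the extremes of an age, which puts the ratio above 1 by construction. A lower bound above 1 is therefore no test of a difference between the mice. The log2 fold change was -0.30 (95% interval -1.01 to 0.41, adjusted p = 0.540, quasi-likelihood test), and it was -0.11 without mouse 4 and -0.60 without mouse 5.

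Among the effectors, Ppp1r1b, or DARPP-32, which inhibits protein phosphatase 1 once protein kinase A has phosphorylated it (ENSMUSG00000061718.12, chromosome 11 from 98348404 to 98357796, plus strand), had 138.5, 120.0 and 123.3 TPM at 6 months and 85.3, 119.9 and 139.8 TPM at 24 months. The 6-month libraries lay close together, and the 24-month mice included both the highest and the lowest library by TPM, whereas by TMM-scaled log2 CPM mouse 10 was the highest, at 6.86 against 6.75 in mouse 5. At 24 months mouse 5 exceeded mouse 2 by 1.55-fold per total count (exact 95% interval 1.47 to 1.63), against 1.14-fold (1.09 to 1.19) between the extremes at 6 months. The log2 fold change was -0.26 (95% interval -0.62 to 0.10, adjusted p = 0.294, quasi-likelihood test), and it was -0.08 without mouse 2. On the opposite strand, 460 exonic bases of 1700003D09Rik lie within those of Ppp1r1b, and since the stated counting options set no strand their reads cannot be told apart.

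Pde10a, the phosphodiesterase that breaks down cyclic nucleotides in medium spiny neurons (ENSMUSG00000023868.17, chromosome 17 from 8525372 to 8986648, plus strand, 33 exon blocks), had the smallest spread between mice of an age of the 7 genes, an SD of 0.13 on the log2 CPM scale. It had 10.1, 9.61 and 10.9 TPM at 6 months and 12.1, 10.1 and 12.0 TPM at 24 months. The highest 24-month libraries, mice 2 and 5, were those furthest apart in Ppp1r1b. The log2 fold change was 0.05 (95% interval -0.20 to 0.30, adjusted p = 0.787, quasi-likelihood test), the narrowest interval of the 7 genes.

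Rgs9, which speeds the return of G proteins to their inactive state after dopamine signalling (ENSMUSG00000020599.13, chromosome 11 from 109225355 to 109298129, minus strand), had 5.21, 6.32 and 5.03 TPM at 6 months and 4.45, 5.70 and 3.29 TPM at 24 months. Mouse 5, the highest library for Ppp1r1b and Gpr6 by TPM though not by log2 CPM, was the lowest for Rgs9 on both scales. Its log2 fold change of -0.42 (95% interval -0.85 to 0.02) had an unadjusted p of 0.0611 and an adjusted p of 0.182 in the quasi-likelihood test, and was -0.23 without the 24-month mouse 5. The deposited values are per gene and do not separate the retinal from the striatal form of Rgs9.

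Syndig1l, also called capucin, a membrane protein enriched in the caudate and putamen (ENSMUSG00000071234.3, chromosome 12 from 84677277 to 84698831, minus strand), was counted 15, 43 and 41 times in the 6-month mice and 55, 45 and 27 times in the 24-month mice. In TPM this was 0.552, 1.43 and 1.43 against 2.10, 1.61 and 0.980. The 6-month mouse 10 was the lowest library, and mouse 11, of the same age, was 2.63-fold higher per total count (exact 95% interval 1.43 to 5.10). The log2 fold change was 0.33 (95% interval -0.52 to 1.18, adjusted p = 0.575, quasi-likelihood test), and it was 0.01 without mouse 10. Its SD within an age of 0.64 on the log2 CPM scale was at or above that of 97.5% of the genes of at least 1 CPM. The antisense gene Gm48573 shares 177 exonic bases with it.

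Six3, a homeodomain transcription factor of the developing forebrain and eye that is needed for the development of indirect pathway neurons (ENSMUSG00000038805.10, chromosome 17 from 85613608 to 85629302, plus strand), was counted 3, 3 and 5 times in the 6-month mice and 7, 11 and 7 times in the 24-month mice. Each 24-month library lay above each 6-month library, as in 20% of all genes tested. Six3 was the 1 member of 7 whose ages did not overlap, where 36.3% of all genes did not and 16.2% were lower at 24 months. The log2 fold change was 1.14 (standard error 0.49, 95% interval 0.05 to 2.23, unadjusted p = 0.0427, adjusted p = 0.149 in the quasi-likelihood test). Its unadjusted p was 0.0955 without mouse 10, 0.109 without mouse 11 and 0.136 without mouse 4. The antisense gene Six3os1 (ENSMUSG00000093460.9), which shares 106 exonic bases with Six3, had 2, 7 and 3 counts against 23, 22 and 10. It differed by 2.16 on the log2 scale, with a standard error of 0.53 and an adjusted p of 0.0559 in the quasi-likelihood test. Another antisense gene, Gm28528, shares 168 exonic bases with Six3. As for Ppp1r1b, reads from the shared bases cannot be told apart, so Six3 and its antisense genes are not fully separate measurements.

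The level of Six3 lay within that of the sensory receptor genes in the same libraries. Olfactory, vomeronasal, taste and trace amine receptor genes (1831 rows) had a mean of 0.0720 to 0.0835 TPM in the 6-month libraries and 0.195 to 0.315 TPM in the 24-month libraries, a 3.30-fold difference of the means. Six3 had 0.0624, 0.0565 and 0.0988 TPM at 6 months and 0.151, 0.222 and 0.144 TPM at 24 months, a 2.37-fold difference, and Six3os1 differed 4.92-fold. In the 24-month libraries, 54.6% to 80.3% of the receptor rows were at or above Six3, and at 6 months 26.4% to 46.6% were. For Gpr6 this share was 0.109% to 0.328% in the 6 libraries, and for Syndig1l 0.218% to 0.983%. Whether the Six3 values share a source with those of the receptor rows was not tested.

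**Figure D2:**
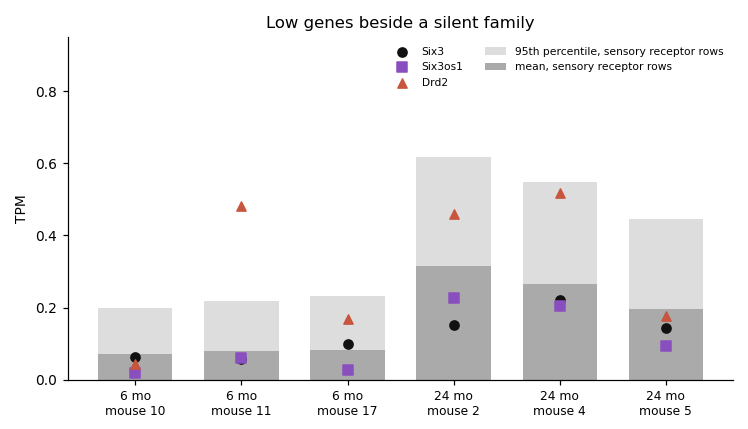
TPM (vertical axis) of Six3, Six3os1 and Drd2 as points in each library (horizontal axis), over bars for the mean (dark grey) and 95th percentile (light grey) of 1831 sensory receptor rows. Six3 lies below the dark bar in all 3 libraries of 24 months, and Drd2 exceeds the light bar in the 6-month mouse 11.

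Of the 7 members, 0 passed 1% FDR in the quasi-likelihood test or in the likelihood ratio test, which called 0% and 5.18% of all genes tested. The Wald test of DESeq2, which called 1.3% of the genes it gave an adjusted p, gave none for Six3 and called 0 of the other 6 members. At an unadjusted p under 0.05 there was 1 of 7 members (14.3%), beside 30.7% of all genes and 31.1% of those of at least 1 CPM, and the number ran from 0 to 2 with each mouse left out. With so few genes the shares were not tested against each other. Their median log2 fold change was -0.04, beside 0.15 over all genes tested and -0.14 over those of at least 1 CPM, to which 6 of the members belong. A difference with age was not resolved for these genes with 3 mice an age, and a p that misses the threshold does not show that the ages were alike.

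**Figure D3:**
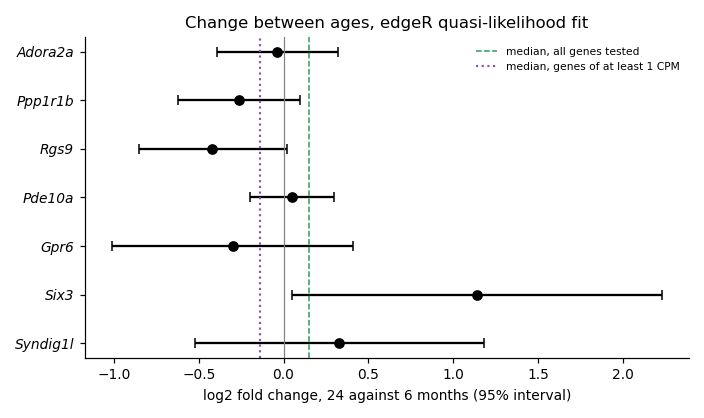
Log2 fold change of the 7 genes at 24 against 6 months (points) with the 95% interval of the quasi-likelihood fit (bars). Dashed and dotted lines are the medians of all genes tested (0.15) and of genes of at least 1 CPM (-0.14). The interval of each gene apart from Six3 includes 0.

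Compared mouse by mouse, the highest and the lowest library differed between members. By TPM, the 24-month mouse 2 was the highest of the 6 libraries in 3 members (Adora2a, Pde10a, Syndig1l) and the lowest in 1 (Ppp1r1b). Mouse 5 was the highest in 2 (Ppp1r1b, Gpr6) and the lowest in 1 (Rgs9), mouse 4 the highest in Six3 and the lowest in none. Of the 6-month mice, mouse 11 was the highest in Rgs9 and the lowest in 3 members (Adora2a, Pde10a, Six3), and mice 10 and 17 were the highest in none and the lowest in 1 each, Syndig1l and Gpr6. This tally depended on the scale. On the TMM-scaled log2 CPM, a comparison added after the data were seen, mouse 10 was the highest in Ppp1r1b and Gpr6 and mouse 17 in Adora2a, mouse 5 was the lowest in Adora2a and Rgs9 and mouse 4 in Pde10a and Gpr6, and mouse 11 was the lowest in Six3 alone. On both scales Ppp1r1b was lowest in mouse 2, Rgs9 in mouse 5 and Syndig1l in mouse 10. Of the 20 striatal companion genes of at least 1 TPM (another list of such markers), mouse 2 was the lowest library by TPM in 7 and the highest in 1, mice 10 and 4 were each the lowest in 5 and the highest in 3, mouse 5 was the lowest in 1 and the highest in 5, and mice 11 and 17 were each the lowest in 1 and the highest in 4. Ratios of members within a library, which do not depend on its total, differed between mice as well. Ppp1r1b over Adora2a in TPM was 26.7, 23.4 and 19.8 in the 6-month mice 10, 11 and 17 and 13.2, 20.6 and 27.2 in the 24-month mice 2, 4 and 5. Rgs9 over Pde10a in TPM ran from 0.274 in mouse 5 to 0.657 in mouse 11.

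**Figure D4:**
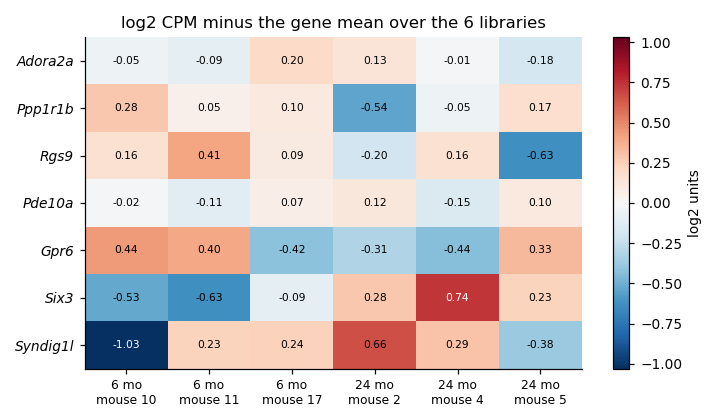
Log2 CPM of each striatal marker gene (rows) in each library (columns) minus its mean over the 6 libraries, with red above and blue below the mean. The lowest cells are Syndig1l in mouse 10 (-1.03), Rgs9 in mouse 5 (-0.63) and Six3 in mouse 11 (-0.63), and no column is of 1 colour.

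Likeness of profiles was measured as the root mean square difference of log2 CPM over the 6 libraries, each gene centred on its own mean, among the 15761 genes of at least 1 CPM, which leaves out Six3. Of the 30 ordered pairs of the other 6 members, 0% had the second member among the nearest 10% of genes and 23.3% had it in the nearer 50%, with ranks from 1712 (Adora2a as a neighbour of Pde10a) to 15466 of 15760. For the 120 pairs of a member with a companion gene, the shares were 8.33% and 38.3%. Profiles were not scaled, so the measure depends on the size of the spread as well as on its shape. Gpr6 and Syndig1l, with few counts and SDs within an age of 0.45 and 0.64, are thus far from most genes. The 3 nearest genes of Rgs9 were Fezf2 (0.064 log2 units), a transcription factor of deep-layer cortical projection neurons, Igsf21 (0.093) and Ramp3 (0.104). Those of Ppp1r1b were Nudt12 (0.021), Tubgcp5 (0.039) and Zfp383 (0.041). Adora2a was nearest to Rasgrp4 (0.025), Pdzph1 (0.026) and 0610040J01Rik (0.029), and Pde10a to 9430038I01Rik (0.027), Akt2 (0.032) and Gm10419 (0.038). Gpr6 was nearest to Pcdhga4 (0.162), Asb2 (0.163) and Gm43071 (0.165), and Syndig1l to Cgref1 (0.132), Isoc1 (0.145) and Gm3227 (0.155). With 6 libraries and so many genes, near profiles are found for each gene, and these names are a description.

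The 26 companion genes of striatal projection neurons, listed apart from the members, give the rest of the programme. Drd2, the defining dopamine receptor of the indirect pathway, was counted 1, 12 and 4 times in the 6-month mice and 10, 12 and 4 times in the 24-month mice, at 0.0445 to 0.518 TPM, and was named after its values were seen. Of the sensory receptor rows, 45.4% were at or above Drd2 in mouse 10, 44.0% in mouse 5 and 1.2% in mouse 11. Drd1, the receptor of the direct pathway, had 170, 90 and 65 counts against 49, 81 and 87, and mouse 10, its highest library with 5.31 TPM, was the lowest for Drd2. Adora2a, with 140 to 177 counts in each library, thus lay above 5 TPM also in mouse 10, where Drd2, known from the same striatal neurons, had 1 count.

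Other companions were well expressed, and the opioid precursor Penk had 137.9 to 187.4 TPM at 6 months and 99.8 to 141.0 TPM at 24 months. Of the 26, 0 passed 1% FDR by edgeR's quasi-likelihood test. An unadjusted p under 0.05 was found for 9, 7 lower (Penk, Tac1, Foxp2, Rarb, Gnal and Actn2 among them) and 2 higher (Isl1 and Sh3rf2, each under 1 TPM in every library and named after their values were seen). This is 34.6% of them beside 30.7% of all genes. By direction, 7 of the 26 were lower, beside 13.1% of all genes, and 2 were higher, beside 17.6%. These shares were not tested against each other. The median log2 fold change was -0.06, and the summed level was 645.3 to 722.0 TPM at 6 months and 567.7 to 705.4 TPM at 24 months. The lowest was that of Foxp2, a transcription factor of medium spiny and layer 6 neurons, at -0.87 (adjusted p = 0.126, quasi-likelihood test), with 1.16 TPM in mouse 2 and 2.86 to 5.56 TPM in the others. Scn4b, a sodium channel beta subunit, differed 5.12-fold between 24-month mice, with 12.8, 32.1 and 65.7 TPM in mice 2, 4 and 5, against 46.1, 38.0 and 32.8 TPM at 6 months.

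In the dopamine and cyclic AMP pathway, 22 of 23 listed genes were tested, Pde2a being listed at 0 or 1 count (named after its values were seen). This row shares 3955 of its 4139 exonic bases with another gene on the same strand in GENCODE vM21, so its counts do not give the level of this phosphodiesterase. The list shares 7 genes with the companions. By the quasi-likelihood test 0 passed 1% FDR, 0 were higher and 8 lower at an unadjusted p under 0.05 (36.4% in all, where 13.1% of all genes were lower and 17.6% higher), with a median log2 fold change of -0.20 beside -0.14 for genes of at least 1 CPM. Among them were Gnal and Gnao1 (G protein alpha subunits), Gnb5 (the beta subunit that binds Rgs9), Prkacb and Prkar1b (subunits of protein kinase A), Akap5 (which anchors the kinase) and Pde4b (another phosphodiesterase). Of the 22 tested, 21 had a mean of at least 1 TPM, whereas shares by direction were taken only over all genes, low ones included. Among genes of at least 1 CPM, 31.1% had an unadjusted p under 0.05 in either direction in that test. Gnal, which couples Drd1 and Adora2a to adenylyl cyclase, had a log2 fold change of -0.38 (95% interval -0.61 to -0.15, adjusted p = 0.0616, quasi-likelihood test). Adcy5, the striatal adenylyl cyclase, had 15.01 to 17.01 TPM at 6 months and 17.3 to 17.8 TPM at 24 months. In TMM-scaled CPM the ages of Adcy5 overlapped. Its log2 fold change was 0.02 (95% interval -0.20 to 0.24, adjusted p = 0.903, quasi-likelihood test). Mouse 10 was low in some genes of this chain, with 112.0 TPM of Prkaca, the catalytic subunit alpha, against 313.1 to 591.4 TPM in the other libraries. It had 7.55 TPM of Ppp1cc, a catalytic subunit of the phosphatase that DARPP-32 inhibits, against 23.3 to 38.5 TPM. Other genes of the chain were not low there, and mouse 10 was the highest library for Prkacb (294.3 TPM) and Akap5 (71.0 TPM). Of the companion list, the potassium channel gene Kcnh4 had 6.99 TPM in mouse 10 against 15.4 to 20.5 TPM. Mouse 10 was also the lowest library for Syndig1l.

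Marker lists of tissues beside the cut differed between the mice. The summed TPM of 9 oligodendrocyte genes (with Mbp and Cnp among the highest), which are dense in the white matter between cortex and striatum, was 1881, 2391 and 1520 in the 6-month mice 10, 11 and 17 and 906.0, 2096 and 2727 in the 24-month mice 2, 4 and 5. At 24 months Ppp1r1b had the same order of mice (2, 4 and 5 from low to high), as had 6 companions with Scn4b and Penk among them, and Adora2a and Syndig1l had the opposite order. Of all genes of at least 1 CPM, 33.8% had the first order and 19.6% the opposite one. At 6 months the order of the oligodendrocyte list, mice 17, 10 and 11, was shared by Rgs9 and reversed in Adora2a and Pde10a, with 17.4% and 13.6% of all genes. Mouse 2 also had the highest level of Cux2, an upper-layer gene, at 96.3 TPM against 39.2 to 62.2 TPM, and the lowest of Tle4, a deep-layer gene, at 13.7 TPM against 20.8 to 28.6 TPM. Not every layer gene followed, and the deep-layer Fezf2 was lowest in mouse 5, at 33.2 TPM, with 43.3 TPM in mouse 2. Rorb, named after its values were seen, was lowest in mouse 2 (51.4 TPM), as were Tbr1 (67.8 TPM) and Bcl11b (25.55 TPM). A shift between layers was not tested. The part of these differences in the members' values was not tested.

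**Figure D5:**
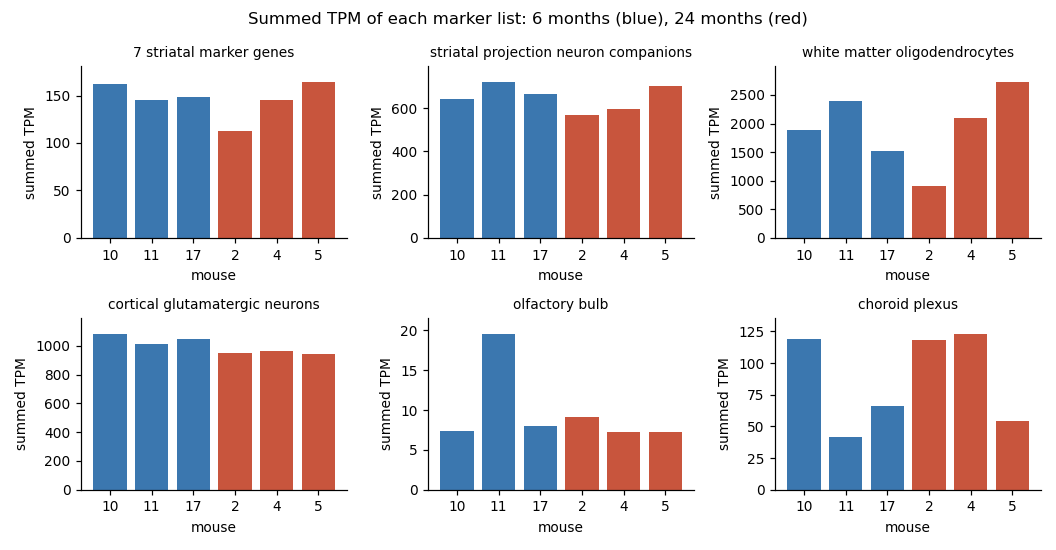
Summed TPM (vertical axes from 0) of 6 marker lists in each library (mouse numbers on the horizontal axes), with 6 months in blue and 24 months in red. The 7 striatal marker genes sum to 112.5 TPM in mouse 2 and 144.9 to 164.3 TPM in the others, while the oligodendrocyte list runs from 906.0 to 2727 TPM and the olfactory bulb list stands out in mouse 11.

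The olfactory bulb list (5 genes, led by Sp8, Cdhr1 and Doc2g) summed to 19.6 TPM in the 6-month mouse 11 and to 7.26 to 9.15 TPM in the other libraries. Mouse 11 was also 1 of the high libraries for Drd2, but not for Six3. The choroid plexus list, which is mostly Ttr, ran from 42.0 to 118.8 TPM at 6 months and from 54.5 to 123.0 TPM at 24 months. The 7 genes of striatal cholinergic interneurons summed to 7.10 to 7.74 TPM at 6 months and 6.07 to 8.999 TPM at 24 months, led by Ecel1 and Slc17a8, and Chat, the enzyme that makes acetylcholine, had 15 to 28 counts in each library (named after its values were seen). In the same order of ages, the thalamus list (6 genes) ran from 34.4 to 41.8 TPM and 27.7 to 39.7 TPM, the hippocampus list (7) from 22.2 to 24.8 TPM and 19.4 to 24.8 TPM, the ependyma list (6) from 11.6 to 13.6 TPM and 11.9 to 14.99 TPM, and the hypothalamus list (5) from 2.98 to 5.09 TPM and 3.43 to 6.02 TPM. The 12 cortical glutamatergic genes summed to 1015 to 1084 TPM at 6 months and 945.9 to 962.0 TPM at 24 months, so that markers of the labelled tissue were high in each library. Of this list, Bcl11b and Foxp1 are also known in medium spiny neurons, so it is not specific to the cortex.

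In these lists of other cells and regions, 0 genes passed 1% FDR in the quasi-likelihood test. At an unadjusted p under 0.05, 1 cortical glutamatergic gene was higher (Cux2, 0.45 on the log2 scale) and 5 of the 12 were lower (among them Tbr1, Neurod6, Bcl11b and Tle4, at -0.46 to -0.40), with a median log2 fold change of -0.29 for the list. Of the 9 oligodendrocyte genes and the 5 ependymal genes tested, 0 had such a p, with medians of -0.12 and -0.17. The cholinergic list had 1 lower gene (Slc17a8, -0.60, median -0.01), the thalamus list 1 lower (Slc17a6, -1.03, median 0.08) and the olfactory bulb list 1 lower (Cdhr1, -0.97, median -0.52, and -0.89 for Doc2g, with mouse 11 at the top of both). The choroid plexus list had 1 higher gene (Otx2, 1.19, median 0.17) and the 4 hypothalamus genes tested 1 higher (Oxt, 1.72, median 0.07). The hippocampus list had 1 higher (Dsp, 1.88) and 2 lower (Lct, -0.77, and Fibcd1, -0.47, median -0.10). Otx2, Oxt and Dsp rest on few counts. Otx2 had 4, 2 and 8 counts at 6 months against 14, 10 and 9 at 24 months. Oxt had 2, 1 and 2 against 7, 6 and 4, and Dsp 7, 9 and 2 against 24, 25 and 19. The mean TPM of the sensory receptor rows was also higher at 24 months, 3.30-fold, and a shared source was not tested. All these counts stand beside the 30.7% of all genes in either direction, of which 13.1% were lower and 17.6% higher. In either direction the share was 50% of the cortical glutamatergic list and 42.9% of the hippocampus list. It was 0% to 25% in the other lists of this paragraph. These shares were not tested against each other.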

How the data were processed

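The authors trimmed 75-base single-end reads with Trim Galore 0.6.4, mapped them to GRCm38 with STAR 2.7.3a and counted those on exons by gene with featureCounts (Subread 2.0.0). All values in the deposited count table were whole (100%), although the stated options split multiply mapped reads. The authors also deposited TPM values, which divide the counts by exonic length. Symbols were taken from the row of the same position, and count over TPM kept 1 ratio per gene in the 27513 genes with a count in every library.

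Counts were tested with edgeR 4.0.16 (R 4.3.3; TMM scaling, at least 10 counts over the 6 libraries, quasi-likelihood test without covariates, Benjamini-Hochberg adjustment over all genes, FDR 1%, the threshold of the study, which names no test). Standard errors were taken from the F statistic. Log2 CPM used a prior count of 2. Alternatives were DESeq2 1.42.0, limma 3.58.1 on log2(TPM + 0.1), other scalings and filters, and leaving out each mouse. Levels, ratios and sequences were handled in Python 3.11.15 (scipy 1.17.1, pandas 2.3.3). Exact intervals of ratios between libraries were conditional binomial (Clopper-Pearson) and made no allowance for the choice of the highest and lowest library.

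The members and the marker lists were chosen with earlier results of these data known. Named were all members, companion and pathway genes with a mean of at least 1 TPM, up to 3 genes of highest TPM or with an unadjusted p under 0.05 of the other lists, the 3 genes nearest to each member, and Six3os1. Gene positions are those of GENCODE vM21 (55240 of 55421 identifiers found), a release near the vM23 the authors used. Results of some genes of these lists are not reported here.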

Additional observations from a re-analysis of the deposited data

How the results depend on the processing

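Of 89 alternative log2 fold changes of the members with an adjusted p, 82 kept their direction and side of the 1% FDR threshold. The other 7 were all of Adora2a, which lay near 0: 0.16 with library totals, 0.07 with limma on log2(TPM + 0.1), 0.00 without a filter, 0.08 with filterByExpr, and 0.06, 0.00 and 0.04 without mouse 17, 4 or 5, in a range of -0.11 to 0.06 with each mouse left out. No member with an adjusted p passed 1% FDR under any alternative (0 with each mouse left out), and DESeq2 gave Six3 none. The member with an unadjusted p under 0.05, Six3, did not have such a p under the Wald test of DESeq2 or limma and was removed by filterByExpr (0 members each), and the number ran from 0 to 2 with each mouse left out, Ppp1r1b joining without the 24-month mouse 5 and Rgs9 alone having such a p without mouse 4, and no member without mouse 10 or 11. The highest library over the lowest in the summed TPM of the members was 1.12 at 6 months and 1.46 at 24 months. Without Ppp1r1b it was 1.06 and 1.105, and with the mean of log2(TPM + 0.1) it was 1.12 at 6 months and 1.08 at 24 months. Divided by the cortical list it was 1.06 at 6 months and 1.47 at 24 months, and in CPM it was 1.08 and 1.24. With each mouse left out it ran from 1.02 to 1.12 (6 months) and from 1.13, without mouse 2, to 1.46 (24 months). No paired analysis was possible because the mice of the ages share no number. With 3 to 11 counts, Six3 is limited by depth.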
